A study of Mus musculus with 20 samples.

Results

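Transcripts of 8 regulators that help set the identity and fuel use of the kidney's proximal tubule were followed in whole mouse kidney: Hnf4a, Hnf4g, Ppara, Ppargc1a, Esrra, Esrrg, Nr1h4 and Maf. They were chosen by symbol, with earlier results of these data known, as were the gene lists set beside them below. Each symbol matched 1 row of the gene count table, so 8 of 55822 rows are described here, and all 8 passed the filter on low counts, with at least 65 counts in every library. Poly(A) RNA was sequenced in 5 control samples, from mice given phosphate-buffered saline (PBS), and 5 samples from mice that received 1 mg of puberulic acid daily, a tropolone compound from Penicillium moulds. Each sample is called a kidney below, although no label says that it came from a single mouse. All mice were 8-week-old C57BL/6J males, dosed once daily 6 times, with kidneys taken on day 7. One label gives the route as oral and another as gavage or intraperitoneal injection. The labels also describe 5 samples from mice on a normal and 5 on a toxic lot of the supplement Choleste-Help, at 1000 mg per day; the names of 10 data columns do not show which lot they hold, and these are not analysed here.

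The proximal tubule reabsorbs most of the filtered sodium, phosphate, glucose and amino acids, and it draws its energy mainly from fatty acid oxidation in mitochondria. HNF4A and its paralogue HNF4G are nuclear receptors that bind genes of the mature tubule, and HNF4A is required for that maturation. PPARA switches on genes of fatty acid oxidation, while the estrogen-related receptors (ERR-alpha from Esrra, ERR-gamma from Esrrg) and their coactivator PGC-1alpha (from Ppargc1a) drive mitochondrial genes. FXR, from Nr1h4, is the bile acid receptor, and Maf encodes the leucine zipper factor c-MAF, which is also made by macrophages and other cell types.

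Promoter windows from RefSeq (GRCm38.p6), covering 250 bases before to 50 after an annotated start, were found for 6 of the 8 genes. Those of 3 genes whose transcripts fell are shown: Hnf4a, because it fell most, Nr1h4, because it holds the only receptor hexamer among the members, and Esrra, as an example rich in G and C. Capitals mark the receptor hexamer AGGTCA, or its reverse complement, and the GC box CCGCCC, or its reverse complement; everything else is in lower case.
Hnf4a, first window (chr2:163506607-163506906, plus strand): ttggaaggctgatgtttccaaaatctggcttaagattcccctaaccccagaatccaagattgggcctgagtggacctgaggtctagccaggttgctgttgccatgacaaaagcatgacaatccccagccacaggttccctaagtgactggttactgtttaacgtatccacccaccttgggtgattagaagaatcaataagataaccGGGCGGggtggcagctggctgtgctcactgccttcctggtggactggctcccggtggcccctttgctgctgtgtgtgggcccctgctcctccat
Hnf4a, second window (chr2:163546905-163547204, plus strand): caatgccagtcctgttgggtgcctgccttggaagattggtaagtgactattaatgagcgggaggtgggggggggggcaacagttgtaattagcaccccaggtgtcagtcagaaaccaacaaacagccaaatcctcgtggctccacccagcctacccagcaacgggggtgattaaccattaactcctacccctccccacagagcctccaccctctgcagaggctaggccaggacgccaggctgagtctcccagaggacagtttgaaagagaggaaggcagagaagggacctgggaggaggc
Nr1h4 (chr10:89506609-89506908, minus strand): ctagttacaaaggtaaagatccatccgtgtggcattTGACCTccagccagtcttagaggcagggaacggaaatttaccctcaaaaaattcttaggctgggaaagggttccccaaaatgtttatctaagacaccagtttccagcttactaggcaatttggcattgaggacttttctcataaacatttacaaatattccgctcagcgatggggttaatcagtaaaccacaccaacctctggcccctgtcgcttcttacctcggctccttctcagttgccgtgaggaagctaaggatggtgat
Esrra (chr19:6921759-6922058, minus strand): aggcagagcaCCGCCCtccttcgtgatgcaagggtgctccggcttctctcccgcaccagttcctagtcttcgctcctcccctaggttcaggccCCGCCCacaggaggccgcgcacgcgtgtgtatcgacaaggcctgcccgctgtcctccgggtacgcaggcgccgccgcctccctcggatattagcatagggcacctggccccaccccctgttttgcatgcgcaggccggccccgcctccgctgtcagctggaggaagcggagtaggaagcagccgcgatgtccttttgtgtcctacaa

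The hexamer, the basic element bound by this receptor family, stood in 1 of the 10 member windows, that of Nr1h4, 214 bases before the start, and in 16.3% of all 32851 windows. No member window held the ERR element TCAAGGTCA (0.423% of all windows), the HNF4 element CAAAGTCCA (0.475%), or 2 hexamers in direct (0.0396%) or inverted (0.00913%) repeat with 1 base between them. These longer elements contain or resemble the hexamer, so the searches overlap. The GC box stood in 5 of the 10 member windows and in 35.7% of all windows. Base composition ran from 44.7% G and C in a window of Esrrg to 74.7% in that of Ppara, against a median of 52.7% over all windows. These are letter matches in 300 bases and describe no binding.

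Totals ran from 18409877 to 22725274 estimated counts in the control libraries and from 19897287 to 24705587 with puberulic acid. Levels below are counts-per-million values (CPM) on library sizes corrected by trimmed mean of M-values (TMM) factors. Differential expression was tested with edgeR's quasi-likelihood test over 16266 genes, and a gene was called at a Benjamini-Hochberg adjusted p under 0.05. Of all genes tested, 65.3% were called, 34.2% higher and 31.1% lower. With libraries scaled to their total counts, the median gene shifted from a log2 fold change of 0.05 to 0.56, and higher genes made up 78.4% of the calls in place of 52.4%. Mitochondrially encoded transcripts made up 18.8% to 22.2% of control counts and 10.5% to 13.8% of those with puberulic acid. Genes that mark the proximal tubule summed to between 46150 and 57020 CPM in controls, so the tissue label matched its defining transcripts.

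All 8 regulators were lower with puberulic acid, against 31.1% of all genes tested. Their log2 fold changes ran from -2.05 for Hnf4a to -0.73 for Esrrg, with a median of -1.51 beside 0.05 over all genes. In 6 of the 8 the ranges of the groups did not overlap, as for 24.0% of tested genes in this direction, and in Ppara and Esrrg they did. With total-count scaling 6 of the 8 were called lower, against 15.5% of genes, and Hnf4g and Esrrg were not. In whole kidney, fewer tubule cells and less RNA of a gene per cell cannot be told apart.

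**Figure D1:**
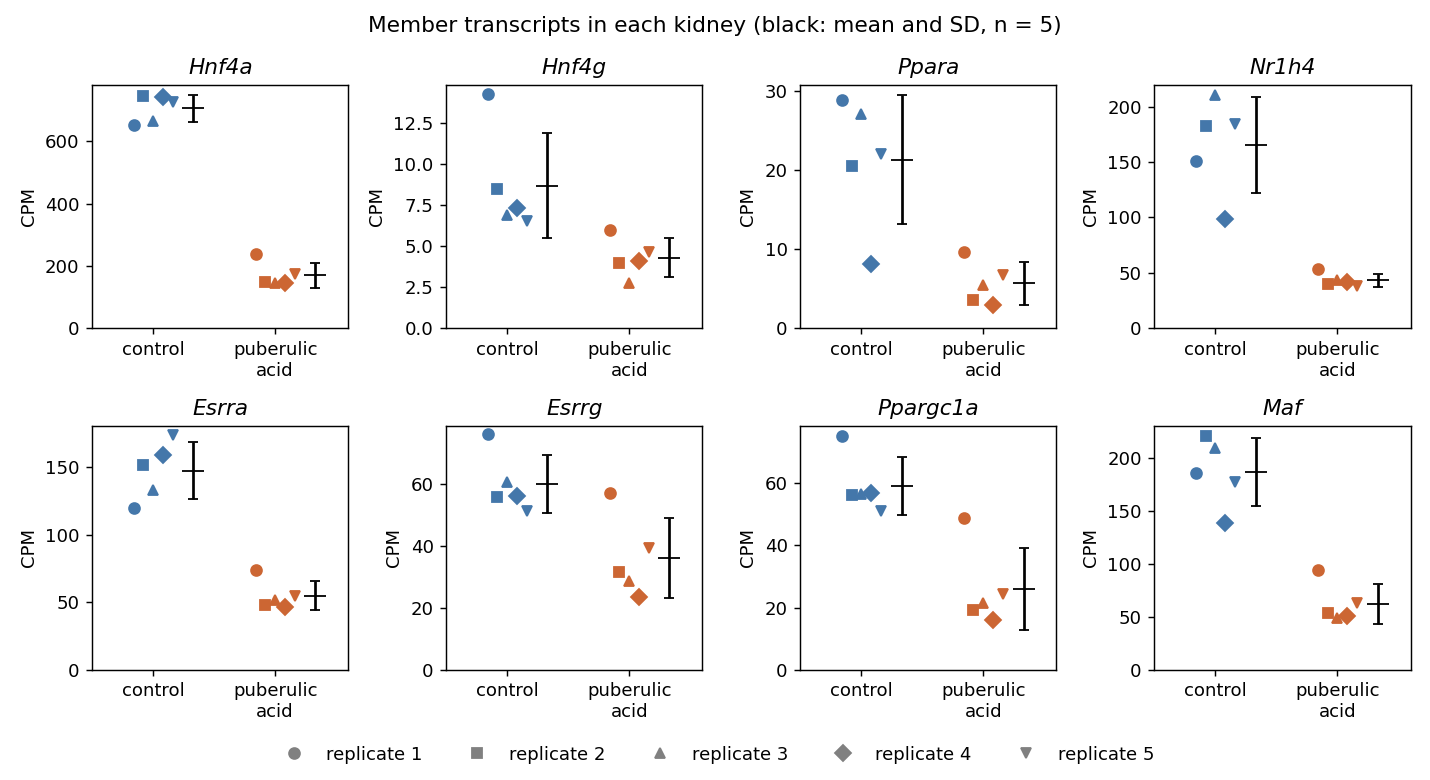
Level of each regulator in CPM (y axis, from 0) in the 5 control and 5 puberulic acid kidneys; symbols mark the replicate, and black bars give the mean and SD. Puberulic acid replicate 1 is the highest of its group in all 8 panels, and in Ppara and Esrrg the groups overlap.

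Hnf4a (ENSMUSG00000017950), the receptor required for the mature tubule, stood at 650.5, 744, 664, 741 and 726 CPM in control replicates 1 to 5. With puberulic acid replicates 1 to 5 had 238, 147, 145, 145 and 176 CPM. Every treated kidney lay well under the lowest control, with replicate 1 the nearest to it. The mean fell from 705.1 ± 44.4 to 170.1 ± 40.1 CPM (SD, n = 5 per group), a 4.15-fold decrease (log2 fold change -2.05 ± 0.14, SE; edgeR adjusted p = 2.47e-07). Only 3.65% of the genes tested had a more negative log2 fold change.

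Hnf4g (ENSMUSG00000017688), the paralogue that shares the HNF4 binding preference, was a far scarcer transcript. Control replicates 1 to 5 had 14.2, 8.44, 6.87, 7.29 and 6.49 CPM, so that replicate 1 stood apart. With puberulic acid the values were 5.98, 3.96, 2.75, 4.07 and 4.66 CPM, all under the lowest control though by a narrow margin. The log2 fold change was -1.01 ± 0.26 (SE, edgeR adjusted p = 0.00442), a 2.02-fold decrease. It was -0.77 without control replicate 1 and -0.50 with total-count scaling, where the call was lost (edgeR adjusted p = 0.099).

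The within-library ratio of the paralogues needs no library scaling. The log2 ratio of Hnf4a to Hnf4g counts went from 6.40 ± 0.51 to 5.32 ± 0.22 (SD, n = 5 per group), so Hnf4a fell 2.12-fold more than Hnf4g (exact two-sided permutation p = 0.0159, 0.0317 adjusted over the 6 ratios computed). Control replicate 1, at 5.51, lay within the treated range of 5.15 to 5.70, and the other 4 controls lay between 6.46 and 6.80. Without that control the ratio differed by -1.31 (exact permutation p = 0.00794). That p is the smallest the test can give, fixed once the only overlapping control was left out.

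Ppara (ENSMUSG00000022383), the fatty acid receptor, varied widely among the controls. They had 28.8, 20.5, 27.1, 8.10 and 21.95 CPM, with replicate 4 far under the others. The treated kidneys had 9.61, 3.62, 5.51, 2.89 and 6.78 CPM, and replicate 1 exceeded control replicate 4. The mean fell from 21.3 ± 8.12 to 5.68 ± 2.68 CPM (SD, n = 5 per group), with a log2 fold change of -1.90 ± 0.37 (SE, edgeR adjusted p = 7.14e-04).

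Its relative Ppard, which encodes the more widely expressed PPAR-delta, averaged 18.6 ± 2.07 CPM in control kidneys and 16.9 ± 2.37 CPM in treated ones (SD, n = 5 per group; log2 fold change -0.14 ± 0.12, SE; edgeR adjusted p = 0.345). That small difference turned to 0.38 with total-count scaling (edgeR adjusted p = 0.0215). The log2 ratio of Ppara to Ppard went from 0.08 ± 0.74 to -1.69 ± 0.52 (SD, n = 5 per group; exact two-sided permutation p = 0.0159, adjusted 0.0317). All controls but replicate 4, at -1.15, lay at or above 0.00, and the treated kidneys lay between -2.25 and -1.001.

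Nr1h4 (ENSMUSG00000047638), the gene of the bile acid receptor, had 151, 182, 211, 98.5 and 184 CPM in control replicates 1 to 5. Puberulic acid replicates 1 to 5 had 53.5, 40.2, 43.5, 41.9 and 38.01 CPM. The treated values were close together and all lay under the lowest control, again replicate 4. The log2 fold change was -1.93 ± 0.18 (SE, edgeR adjusted p = 2.56e-06), a 3.81-fold decrease.

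Nr1h3, which encodes the oxysterol receptor LXR-alpha, fell too, from 54.3 ± 4.87 to 24.4 ± 7.65 CPM (SD, n = 5 per group; log2 fold change -1.15 ± 0.18, SE; edgeR adjusted p = 1.12e-04). The log2 ratio of Nr1h4 to Nr1h3 went from 1.57 ± 0.51 to 0.87 ± 0.29 (SD, n = 5 per group; exact two-sided permutation p = 0.0317, adjusted 0.0381). The ranges overlapped, and leaving out any of 6 single samples (control replicates 1, 2, 3 and 5, puberulic acid replicates 1 and 5) gave an exact permutation p between 0.0556 and 0.0714.

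Among the mitochondrial regulators, Esrra (ENSMUSG00000024955) was the most abundant and fell most. Control replicates 1 to 5 had 120, 151, 133, 159 and 174 CPM, and treated replicates 1 to 5 had 73.7, 48.2, 51.6, 46.4 and 54.2 CPM. The groups were well separated, with treated replicate 1 nearest to the controls. The log2 fold change was -1.43 ± 0.14 (SE, edgeR adjusted p = 3.92e-06), a 2.69-fold decrease. Exons of Esrra overlap those of Trmt112 on the opposite strand, which had 679 to 1125 counts per library. Whether the counting used strand is not given in the sources used here, so reads of the pair may be divided with error.

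Esrrg (ENSMUSG00000026610) fell least of the 8. Its controls had 75.9, 55.7, 60.4, 56.2 and 51.3 CPM and its treated kidneys 57.0, 31.5, 28.7, 23.5 and 39.4 CPM. Treated replicate 1 lay among the controls, and the other 4 lay under all of them. The log2 fold change was -0.73 ± 0.21 (SE, edgeR adjusted p = 0.00884). It was -0.98 without treated replicate 1 (edgeR adjusted p = 1.62e-04) and -0.22 with total-count scaling (edgeR adjusted p = 0.366), so the call was lost under that scaling.

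The log2 ratio of Esrra to Esrrg went from 1.30 ± 0.42 to 0.65 ± 0.26 (SD, n = 5 per group), a 1.57-fold larger decrease for Esrra (exact two-sided permutation p = 0.0317, adjusted 0.0381). The ranges overlapped, since control replicate 1 stood at 0.66 and the highest treated kidney at 0.98. Leaving out any of 6 single samples (control replicates 2, 4 and 5, puberulic acid replicates 1, 2 and 5) gave an exact permutation p of 0.0556.

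Ppargc1a (ENSMUSG00000029167), the coactivator gene, had 75.3, 56.1, 56.6, 56.8 and 51.2 CPM in control replicates 1 to 5. In the treated kidneys it had 48.9, 19.2, 21.4, 15.9 and 24.5 CPM. Treated replicate 1 lay just under the lowest control, while the other 4 were at 24.5 CPM or less. The log2 fold change was -1.19 ± 0.26 (SE, edgeR adjusted p = 0.00183), and it was -1.57 without treated replicate 1 (edgeR adjusted p = 2.21e-06), or 2.97-fold in place of 2.28-fold.

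Ppargc1b, encoding the related PGC-1beta, was scarce at 4.80 ± 0.82 and 3.38 ± 0.68 CPM (SD, n = 5 per group; log2 fold change -0.51 ± 0.20, SE; edgeR adjusted p = 0.0374). It lost that call in 9 of the 19 alternative fits, among them those without control replicate 1, 3 or 4 or puberulic acid replicate 1, 2 or 5 (edgeR adjusted p from 0.0549 to 0.0791). The log2 ratio of Ppargc1a to Ppargc1b went from 3.62 ± 0.22 to 2.84 ± 0.80 (SD, n = 5 per group), which did not pass the test (exact two-sided permutation p = 0.0952). Treated replicate 1 had the highest ratio of all 10 kidneys, 3.98, and without it the difference was -1.07 (exact permutation p = 0.00794). That p is the smallest the test can give, fixed once the only overlapping treated kidney was left out. Leaving out any other sample did not bring the ratio past the threshold.

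Maf (ENSMUSG00000055435) had 186, 221, 209.8, 139 and 177 CPM in control replicates 1 to 5 and 93.8, 53.2, 48.5, 50.6 and 62.6 CPM with puberulic acid. All treated kidneys lay under the lowest control. The log2 fold change was -1.59 ± 0.19 (SE, edgeR adjusted p = 1.63e-05), a 3.02-fold decrease.

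**Figure D2:**
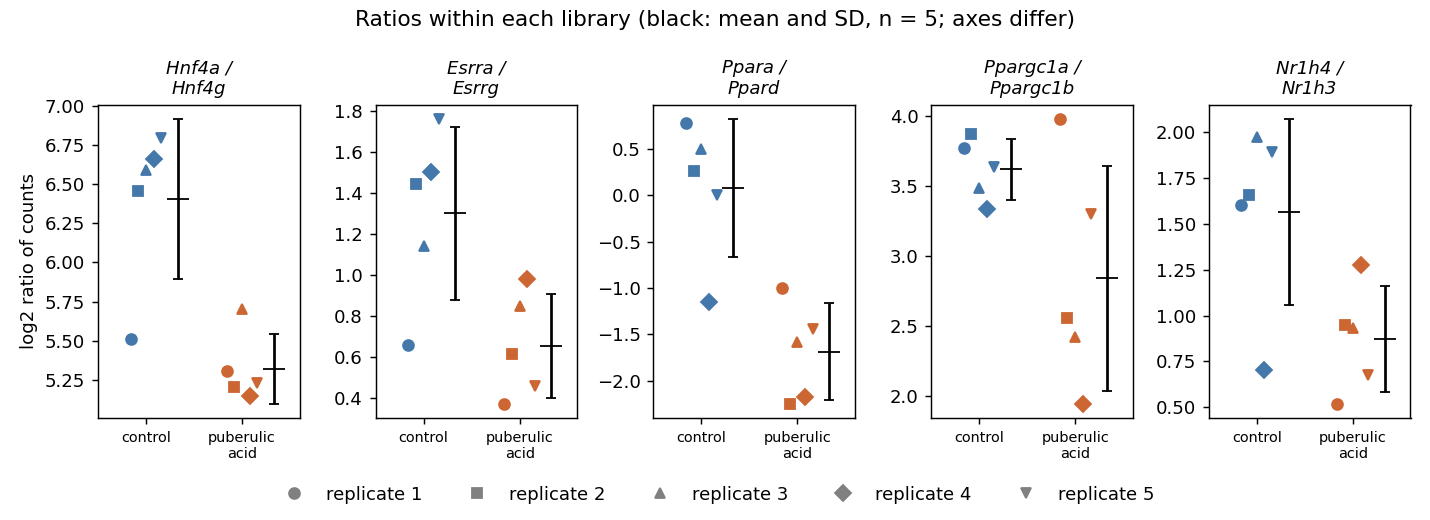
Log2 ratio of the counts of a regulator to those of its relative within each library (y axes differ), with symbols for the replicate and black bars for the mean and SD of 5 kidneys. The groups overlap in all 5 panels, and in that of Ppargc1a to Ppargc1b treated replicate 1 is the highest of all 10.

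The small Maf genes, whose products lack an activation domain and pair with other leucine zipper factors, differed among themselves. Maff rose from 2.90 ± 0.94 to 66.0 ± 11.9 CPM (SD, n = 5 per group; log2 fold change 4.50 ± 0.22, SE; edgeR adjusted p = 1.77e-08). Mafk rose with a log2 fold change of 1.12 ± 0.13 (SE, edgeR adjusted p = 9.86e-06). Mafg, named after its value was seen, had a log2 fold change of -0.27 (edgeR adjusted p = 0.116), called lower in 2 of the 19 alternative fits (without control replicate 4 and without puberulic acid replicate 2) and at 0.24 with total-count scaling (edgeR adjusted p = 0.139). Of the 4 family members tested besides Maf, these 2 were called higher and none lower.

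Macrophage markers were higher in the same kidneys, and macrophages are known to express Maf. Of 12 such markers 9 were called higher and none lower, and their summed level went from 126 to 263 CPM in controls to 282 to 933 CPM with puberulic acid. Csf1r and Adgre1, named after their values were seen, were not called, and their groups overlapped. Their log2 fold changes were 0.27 and 1.33 (edgeR adjusted p = 0.234 and 0.0564). Cd68, a lysosomal glycoprotein of macrophages, had a log2 fold change of 3.83 and Itgam, the CD11b integrin, of 3.78, or 4.50 without control replicate 4. Their part in the Maf results was not tested.

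Puberulic acid replicate 1 had the highest level of its group for all 8 regulators. Its 13 proximal tubule markers summed to 9721 CPM, the highest of the 5 treated kidneys (the lowest had 6852), and its macrophage markers to 282 CPM, the lowest. Without this sample all 8 regulators were still called lower, and the log2 fold changes ran from -2.23 for Hnf4a to -0.98 for Esrrg. Control replicate 1 was the highest control for 4 of the 8 and control replicate 4 the lowest for 3.

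**Figure D3:**
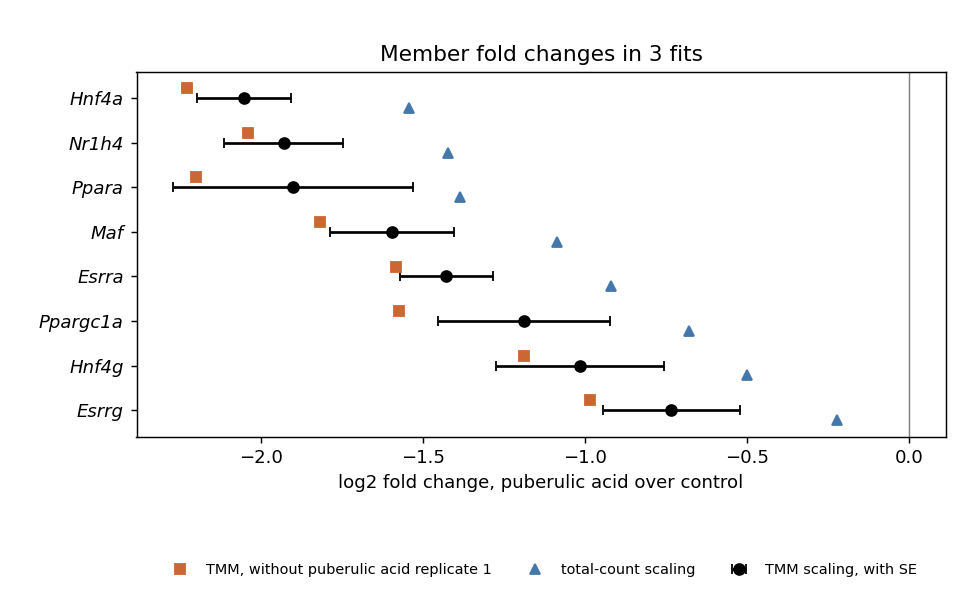
Log2 fold change (x axis) of each regulator with TMM scaling (black, with SE), without puberulic acid replicate 1 (squares) and with total-count scaling (triangles). All points lie below 0, and Esrrg with total-count scaling, at -0.22, lies nearest to it.

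Levels of different genes were compared as CPM per kilobase of annotated exon. In controls Hnf4a led with a mean of 146 CPM per kilobase, followed by Nr1h4 (71.8), Esrra (33.6), Maf (22.6), Esrrg (9.65), Ppargc1a (8.98), Ppara (5.55) and Hnf4g (3.29). The sample ranges of neighbours in this order overlapped for Esrrg with Ppargc1a and for Ppara with Hnf4g, and not for the others. With puberulic acid Hnf4a was at 35.2 CPM per kilobase, still above all other members in every kidney, and Nr1h4 at 18.9. The order was kept down to Ppargc1a (3.94), with Hnf4g (1.63) and Ppara (1.48) last and overlapping. Among the treated kidneys the ranges of Nr1h4 and Esrra, Esrra and Maf, Maf and Esrrg, and Esrrg and Ppargc1a also overlapped.

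Genes linked to HNF4A in the proximal tubule, a list of transporters and metabolic enzymes, were all called lower (26 of 26), with a median log2 fold change of -2.96. The most negative were Slc22a8, the organic anion transporter OAT3, at -6.76 ± 0.37 (SE, edgeR adjusted p = 4.09e-08), and Slc34a1, the sodium-phosphate cotransporter, at -5.36 ± 0.55 (SE, edgeR adjusted p = 4.86e-06). Without puberulic acid replicate 1, the highest of its group, the fall of Slc34a1 was 73.5-fold in place of 41.0-fold. The 13 proximal tubule markers were also all lower, from -5.36 to -2.48, with Slc34a1 and Miox, a renal inositol oxygenase, at the low end. Each of the 13 had a more negative log2 fold change than any of the 8 regulators; that difference was not tested.

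Targets of PPARA, mostly enzymes of fatty acid oxidation and ketogenesis, were called lower in 18 and higher in 2 of 22 tested, with a median of -1.55. Cyp4a14, a fatty acid hydroxylase, had a log2 fold change of -4.16 ± 0.58 (SE, edgeR adjusted p = 5.50e-05), or -4.84 without puberulic acid replicate 1. The 2 that rose were Pdk4, a kinase that inhibits pyruvate dehydrogenase (log2 fold change 2.10 ± 0.33, SE; edgeR adjusted p = 1.43e-04), and Plin2, a lipid droplet coat protein (1.86 ± 0.11, SE; edgeR adjusted p = 9.02e-08).

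Targets of the ERR receptors and PGC-1alpha, mostly respiratory chain and citric acid cycle genes, were called lower in 25 of 26, with none higher and a median of -0.90. Perm1, a regulator of oxidative metabolism, went from 7.33 ± 1.63 to 1.27 ± 1.41 CPM (SD, n = 5 per group; log2 fold change -2.52 ± 0.54, SE; edgeR adjusted p = 0.00142), and its log2 fold change was -3.50 without puberulic acid replicate 1. Sod2, the mitochondrial superoxide dismutase, had -1.57 ± 0.13 (SE, edgeR adjusted p = 9.23e-07). Tfam, the mitochondrial transcription factor, was the gene of the list that was not called (-0.27 ± 0.14, SE; edgeR adjusted p = 0.111), and it is named here after its value was seen.

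Targets of FXR, known mainly from liver and gut, moved less uniformly. The list was not split by whether FXR raises or lowers a gene, so its counts and median do not measure FXR activity. Of 13 genes 8 were tested, 4 were called lower and 2 higher, and the median log2 fold change was -0.41. Nr0b2, among those lower (-0.58, edgeR adjusted p = 0.0441), was called lower in only 8 of the 19 alternative fits. It is named after its value was seen. Slc51a and Slc51b, the subunits of the basolateral bile acid exporter, had -2.28 ± 0.39 (SE, edgeR adjusted p = 2.88e-04) and -0.86 ± 0.17 (SE, edgeR adjusted p = 7.49e-04); the call for Slc51b was lost with total-count scaling (edgeR adjusted p = 0.0795). Abcb4, a phospholipid exporter, rose (1.39 ± 0.29, SE; edgeR adjusted p = 0.00125). The other higher gene, Abcb11, the liver's bile salt export pump, had no count in any control but averaged 0.838 CPM in treated kidneys, which is at least 4.64-fold higher than a floor of 3 counts per control library; it was named after its value was seen. Abcb11 passed the filter on low counts through the treated kidneys alone. It is the highest of the list at the fitted value and at that bound, so the median of -0.41 could not change. With total-count scaling 1 gene of this list was called lower and 3 higher.

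**Figure D4:**
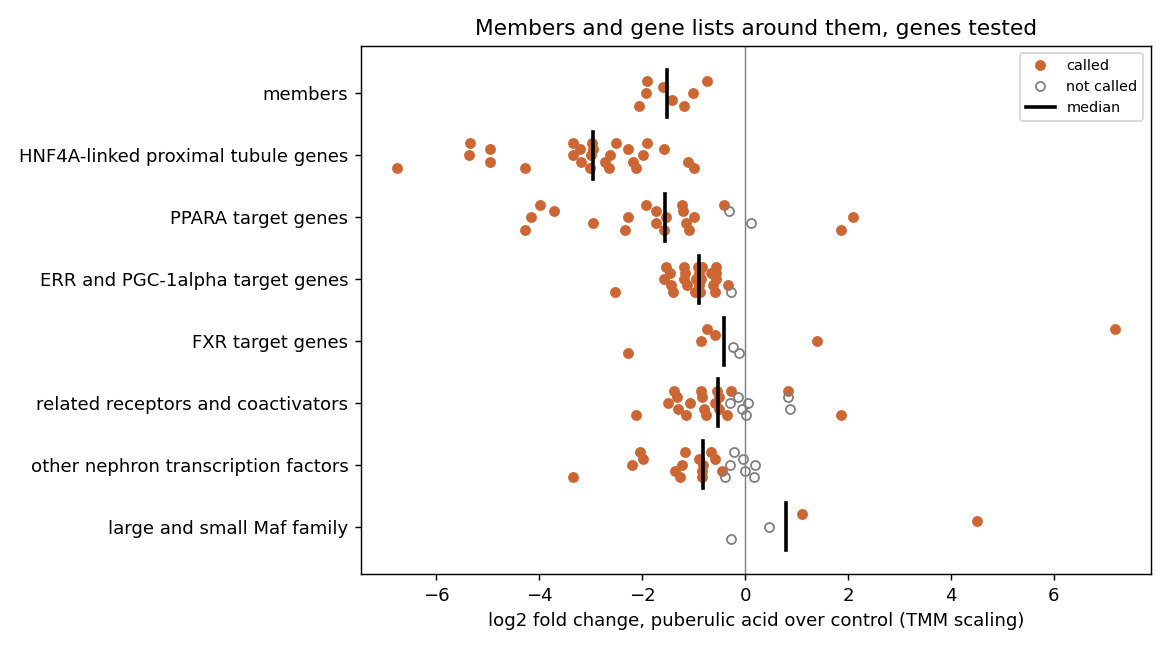
Log2 fold change (x axis, TMM scaling) of each tested gene in the lists around the regulators, filled where called, with the list median as a bar. Of the 8 groups plotted, the HNF4A-linked genes have the lowest median (-2.96), and the point near 7 is Abcb11, whose fitted value is not a bound because its controls had no counts.

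Related receptors and coactivators were called lower in 17 and higher in 2 of 26 tested, with a median of -0.53; with total-count scaling 7 were lower and 8 higher, where over all 16266 genes 2526 were lower and 9179 higher. Lpin1, a coactivator of PPARA with PGC-1alpha, had a log2 fold change of -2.12 ± 0.19 (SE, edgeR adjusted p = 1.4e-06), and Nr1i3, the receptor CAR, of -1.49 ± 0.49 (SE, edgeR adjusted p = 0.0184), which lost its call with total-count scaling, without control replicate 4 (edgeR adjusted p = 0.0577), without control replicate 5 (edgeR adjusted p = 0.0521) and with the replicate number as a block (edgeR adjusted p = 0.0594). Pprc1, another coactivator of the PGC-1 family, rose by 1.86 ± 0.28 on the log2 scale (SE, edgeR adjusted p = 1.05e-04), in the opposite direction to Ppargc1a, and Nrip1, a corepressor of nuclear receptors, rose by 0.83 ± 0.14 (SE, edgeR adjusted p = 2.47e-04).

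Other transcription factors of the nephron were called lower in 15 and higher in none of 22, with a median of -0.82. Klf15, which controls amino acid and glucose metabolism, had -3.35 ± 0.27 (SE, edgeR adjusted p = 7.91e-07), and Osr1, a factor of kidney development, had -2.20 ± 0.38 (SE, edgeR adjusted p = 2.87e-04) at a control level of 1.68 CPM. These 2 were the only factors of this list with a more negative log2 fold change than Hnf4a. With total-count scaling 9 of the 22 were lower and 4 higher.

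Markers of other cell types were less uniform. In loop, distal and collecting duct 9 of 12 were called lower, led by Pvalb (-4.18) and Calb1 (-1.93); without puberulic acid replicate 1 these were at -5.68 and -2.60. Of 7 podocyte markers 1 was lower, Nphs1 (-1.01), and of 8 endothelial markers 2 were, Ehd3 (-1.10) and Kdr (-0.83). Fibroblast and pericyte markers were higher in 7 and lower in 1 of 9, with Col1a1 at 4.15, Col3a1 at 4.12 and Rgs5 at -0.72 on the log2 scale. Of 8 tested T and B cell markers 4 were higher, with Cd4 at 2.48 and Ptprc, which all leukocytes including macrophages express, at 1.92. The other 4, Cd3e, Cd3g, Cd8a and Cd79b, were not called (edgeR adjusted p from 0.219 to 0.701) and are named after their values were seen. With total-count scaling 5 loop, distal and collecting duct markers were lower and 2 higher, and the calls of Nphs1, Ehd3, Kdr and Rgs5 were lost. The call of Nphs1 was also lost without control replicate 3, 4 or 5 or puberulic acid replicate 3, and that of Rgs5 without control replicate 5 or puberulic acid replicate 3. Their part in the levels of the 8 regulators was not tested.

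The genes most alike in pattern were those with the smallest root mean square difference of log2(CPM + 1), centred on the control mean, over the 10 kidneys. For Hnf4a these were Bckdha, at a difference of 0.0906, and Shmt2, at 0.0975, which encode mitochondrial enzymes of branched-chain amino acid and serine metabolism. For Esrra they were Fcgrt (0.0795) and Neu1 (0.0853), for Maf Tprkb (0.106) and Castor2 (0.124), and for Ppargc1a Atp6v0a4 (0.137) and Pigg (0.159). For Esrrg they were Tmem106b (0.128) and Arhgef19 (0.133), for Hnf4g Rassf3 (0.158) and Far1 (0.164), for Nr1h4 Sfxn2 (0.221) and Csrp2 (0.226), and for Ppara Rnf152 (0.32) and Dnajc6 (0.39). No regulator was among the closest genes of another. The closest pair of regulators was Hnf4g with Esrrg, at a difference of 0.253. These are descriptions over 9493 genes, and 2 groups set most of each pattern.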

How the data were processed

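The authors deposited 1 table of estimated counts per gene, unnormalized as far as stated and not whole. Per the submitters' processing notes, fastp 0.22.0, FastQC 0.12.1, MultiQC 1.28, Salmon 1.10.3, DESeq2 and the build GRCm39 were used; the annotation release is not given in the sources used here. Per the labels' protocols, libraries were poly(A)-selected and directional. Columns were matched to samples by name, which left 10 unmatched columns unused. Symbols were found for 51344 of 55822 identifiers (GENCODE M21, also the source of exon lengths).

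Counts were rounded, filtered with filterByExpr, scaled by TMM and tested with edgeR 4.0.16 (glmQLFit, glmQLFTest; limma 3.58.1, R 4.3.3), fitting only the 5 control and 5 puberulic acid samples, with adjustment over all 16266 genes. Standard errors of log2 fold changes were derived from the quasi-likelihood F statistic. The fit was checked on simulated data. Ratios used counts plus 0.5 and exact permutation over 252 assignments (scipy 1.17.1). A floor of 3 counts was 0.158 to 0.195 CPM in controls and covers counting error only. The labels do not say that samples are single animals, so p-values measure the spread between these samples.

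Named genes are the 8 regulators, their relatives in the 6 ratios, the 2 called genes with the largest change in each direction of each list at a mean of at least 1 CPM, and the 2 genes most alike in pattern at 10 CPM or more. 1 of the 6 ratios and some genes that this rule names are not reported here. Members and lists were chosen with earlier results of these data known. Same-numbered samples were not paired: their deviations correlated from -0.172 to 0.039. Alternatives were relative log expression, upper-quartile and total-count scaling, 2 other filters, a robust fit, DESeq2 1.42.0, libraries without mitochondrially encoded and the 10 most abundant genes, a replicate block, 5 added to counts for ratios, and each sample left out.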

Additional observations from a re-analysis of the deposited data

Results flagged for a closer look

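In 28 groups of 5 values (8 levels and 6 ratios in 2 groups), 5 held a sample whose gap to its neighbour exceeded 0.71 of the group's range. Chance gives about 1 in 20, or 1.4 of 28, if the values were independent, which related genes are not.

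Control replicate 1 had the highest Hnf4g of the controls, 14.2 CPM (gap 0.748 of the range), and the highest Ppargc1a, 75.3 CPM (gap 0.765). Its log2 ratio of Hnf4a to Hnf4g was the lowest of the controls at 5.51 (gap 0.736). Puberulic acid replicate 1 had the highest Ppargc1a of its group, 48.9 CPM (gap 0.74), and the highest Esrra, 73.7 CPM (gap 0.715).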

How the results depend on the processing

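All 8 regulators were lower and called in 18 of the 19 alternative fits; with total-count scaling 6 were. That scaling called 2526 genes lower and 9179 higher, against 5058 and 5564, and 47 genes of the lists higher, against 28. It turned Ppard from -0.14 to 0.38. Over the refits of the 34 other genes chosen by the naming rule, 618 values kept their direction and side of the threshold, 24 lost the call and this 1 reversed. Of the genes named after their values were seen, Rxrb went from lower (-0.27) to higher (0.24) under that scaling. Pax2 and Pax8 gained a call as higher there, and Nr0b2 lost its call as lower (-0.58 to -0.07). Mafg and Tfam, called in neither fit, went from -0.27 to 0.24 each. Leaving out 1 sample gave 4881 to 5395 genes lower and 5103 to 5842 higher. In those refits the ratio differences ran from -0.81 to -0.53 for Esrra to Esrrg, from -0.91 to -0.59 for Nr1h4 to Nr1h3 and from -1.07 to -0.56 for Ppargc1a to Ppargc1b.

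No label says that same-numbered samples share more than a number. With the replicate block in the fit all 8 regulators kept their calls. For the ratios, the replicate block (sign flips of 5 paired differences, smallest p 0.0625) gives by construction the same mean differences, -1.08 (Hnf4a to Hnf4g), -0.65 (Esrra to Esrrg), -1.77 (Ppara to Ppard) and -0.69 (Nr1h4 to Nr1h3), and cannot pass the threshold, so it says nothing about their stability. Ratios per deposited length were not run, as no lengths are in the columns used. Depth limits Hnf4g, with 65 to 249 counts per library.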

Other observations

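Several genes beside the 8 regulators are described here after their values were seen. Rxra encodes the retinoid X receptor that pairs with PPARA and FXR on DNA. It had 120, 143, 112, 119 and 124 CPM in control replicates 1 to 5 and 78.8, 55.2, 52.6, 50.7 and 56.3 CPM with puberulic acid, without overlap (log2 fold change -1.07 ± 0.12, SE; edgeR adjusted p = 1.30e-05). Vdr, the vitamin D receptor and another partner of RXR, had a log2 fold change of -1.30 (edgeR adjusted p = 1.04e-05). Both genes were called lower in all 19 alternative fits. Rxrb, the more widely expressed RXR, had -0.27 (edgeR adjusted p = 0.0284) and turned to 0.24 with total-count scaling (edgeR adjusted p = 0.0467).

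Pax2 and Pax8, which specify the nephron lineage in development, were not called in the same kidneys. Pax2 was at 25.1 to 28.2 CPM in controls and 23.6 to 29.6 CPM with puberulic acid, with overlapping groups (log2 fold change 0.00, edgeR adjusted p = 0.99). Pax8 had a log2 fold change of 0.19 (edgeR adjusted p = 0.169). With total-count scaling both were called higher, at 0.51 and 0.70. Among PPARA targets, Cpt1a, which admits fatty acids to mitochondria, fell 2.22-fold and was called lower in all 19 alternative fits.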
